A study of Mus musculus with 6 samples.

Results

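The genes described here encode the proteins through which cyclic AMP (cAMP) acts inside a T cell: the exchange factors EPAC1 (Rapgef3) and EPAC2 (Rapgef4), the protein kinase A (PKA) catalytic subunits Prkaca and Prkacb, the PKA regulatory subunits Prkar1a, Prkar2a and Prkar2b, and the transcription factors Creb1, Crem and Atf1. They were taken by symbol from the deposited count matrix, which held all 10 of them among 24421 genes, and none was chosen by its measured value.

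cAMP binds the regulatory subunits of PKA and releases the catalytic subunits, which then phosphorylate their targets. One of these targets is CREB1, which with ATF1 and CREM binds cAMP response elements in promoters. cAMP also binds EPAC1 and EPAC2 directly and turns them into activators of the small GTPase RAP1, which acts on integrin adhesion. In T cells a rise of cAMP is known to dampen signaling from the antigen receptor, partly through PKA and the kinase CSK, and regulatory T (Treg) cells are known for a high cAMP content.

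The libraries came from CD4+YFP+ Treg cells sorted without any treatment from splenocytes of female C57BL/6 mice aged 8 to 11 weeks. WT cells came from Foxp3Cre mice and KO cells from Foxp3Cre miR-142fl/fl mice, 3 mice and 3 libraries per group. Both groups carried the same allele, a Cre recombinase fused to YFP under the endogenous Foxp3 promoter, and differed in the floxed miR-142 alleles. Deletion thus followed Foxp3 expression, and an effect within the cell and an effect of the mouse around it cannot be told apart in these libraries. The libraries held between 13883069 and 24042994 counts. Foxp3 (536 to 749 CPM, counts scaled to a common library size after TMM normalization), Cd4 (833 to 1043 CPM) and Cd3e (590 to 733 CPM) were present in all 6. All KO libraries were above all WT libraries for Foxp3 and below them for Cd4 and Cd3e, but none of these genes was called. Of 7 Treg genes listed, 2 were called, both higher in KO. They were Il2ra (log2 fold change 1.77, FDR = 0.000880 by edgeR) and Tnfrsf18 (0.81, FDR = 0.00877). Mir142 had 0 counts throughout, and Mir142b, its overlapping antisense annotation, had 4.14 to 9.05 CPM in WT and 0.342 to 0.389 CPM in KO libraries. Summed transcripts of other cells were higher in every KO than in every WT library for each list but B cells. They were highest in KO replicate 1, except for 6 platelet and megakaryocyte genes (8.24 to 9.85 CPM in WT, 15.9, 20.3 and 16.5 CPM in KO replicates 1 to 3). CD8 T and NK cell genes had 20.1 to 24.3 CPM in WT and 76.7, 55.7 and 44.5 CPM in KO, of which Eomes held 39.1, 42.0 and 29.8 CPM. Erythroid genes had 0.774 to 1.05 CPM in WT and 12.0, 1.82 and 1.16 CPM in KO. The summed level of 10 neutrophil genes was 0.277 to 1.29 CPM in WT and 886, 7.87 and 41.1 CPM in KO replicates 1 to 3. Mpo (log2 fold change 5.45, FDR = 0.00633 by edgeR) and Elane (6.21, FDR = 0.01001), the only 2 tested, were called higher. Both passed the filter on low values only through the KO libraries, so they entered the test because they were high there. Mpo had 16.8, 6.21 and 32.2 CPM in KO. The 8 neutrophil genes not tested were high in KO replicate 1 alone, such as S100a9 with 247, 0 and 1.23 CPM. The summed level of 10 monocyte and macrophage genes was 7.64 to 11.2 CPM in WT and 2724, 75.8 and 18.96 CPM in KO. That of 6 dendritic cell genes was 2.99 to 4.04 CPM in WT and 154, 5.75 and 6.71 CPM in KO. For 8 B cell genes it was 15.1 to 22.1 CPM in WT and 236, 8.33 and 11.8 CPM in KO, so only KO replicate 1 was above WT. Of the neutrophil, monocyte and macrophage, dendritic cell and B cell lists, 9, 10, 6 and 8 genes were highest in KO replicate 1, and no gene was at 0 in all libraries.

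Of the cAMP effector genes, Rapgef3 rose and Rapgef4 fell in miR-142–deficient Treg cells, while no PKA subunit and no CREB family gene passed the test. The call was an FDR under 0.05 in edgeR's quasi-likelihood F test, adjusted over the 11658 genes that exceeded 1 CPM in 3 or more libraries. By that rule 18.8% of all tested genes were called, 11.6% higher and 7.27% lower in KO, so 2 calls among 10 genes was a share near the background. The groups did not overlap for 4 of the 10 genes, as for 41.0% of all tested genes. The median log2 fold change of the 10 genes was -0.19, beside 0.02 over all tested genes. In bulk RNA a lower level can come from fewer cells that express a gene or from less RNA per cell, and these cannot be told apart.

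**Figure D1:**
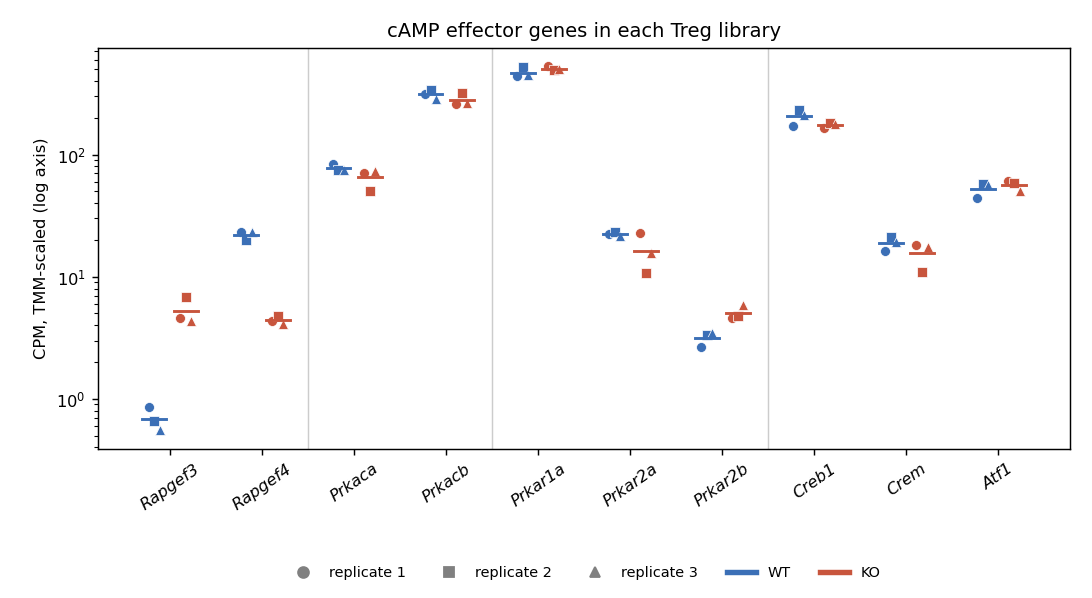
Level of each cAMP effector gene in TMM-scaled CPM (log axis) in the 3 WT (blue) and 3 KO (red) libraries, with the mean of each group as a line. Rapgef3 lies between 0.553 and 0.862 CPM in WT and between 4.38 and 6.81 CPM in KO, Rapgef4 lies between 20.0 and 23.2 CPM in WT and between 4.11 and 4.77 CPM in KO, and the other 8 genes were not called.

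Rapgef4 encodes EPAC2, an exchange factor best known from neurons and endocrine cells. The gene lies on chromosome 2 (GRCm38, 71981240 to 72257474, plus strand). Its levels were 23.2, 20.0 and 23.2 CPM in WT replicates 1 to 3 and 4.33, 4.77 and 4.11 CPM in KO replicates 1 to 3. The groups were far apart beside the spread within each of them. The means were 22.1 ± 1.84 and 4.40 ± 0.338 CPM (SD, n = 3), 5.02-fold lower in KO, with a log2 fold change of -2.33 (SE 0.15, 95% CI -2.68 to -1.98, FDR = 0.000508 by edgeR). Of all tested genes, 38 including Rapgef4 had a log2 fold change as low.

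Rapgef3 encodes EPAC1, the more widely expressed of the exchange factors. It lies on chromosome 15 (GRCm38, 97744770 to 97767972, minus strand). In WT replicates 1 to 3 it had 14, 16 and 10 counts, or 0.862, 0.656 and 0.553 CPM. In KO replicates 1 to 3 it had 83, 90 and 64 counts, or 4.61, 6.81 and 4.38 CPM. All 3 KO libraries were above all WT libraries, and all of these counts were above the floor of 3. The means were 0.690 ± 0.157 and 5.27 ± 1.34 CPM (SD, n = 3), 7.59-fold higher in KO, with a log2 fold change of 2.92 (SE 0.31, 95% CI 2.21 to 3.64, FDR = 0.00182 by edgeR). A fold change as large was seen in 162 tested genes including Rapgef3. The gene passed the filter on low values only through its 3 KO libraries, so it entered the test because it was high there. The exact two-sided permutation test gave p = 0.1 for Rapgef3 and for Rapgef4, the smallest that 3 against 3 libraries can give.

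The summed neutrophil, monocyte and macrophage, and dendritic cell lists were higher in every KO than in every WT library, as Rapgef3 was. In KO replicates 2 and 3 the neutrophil sum was mostly Mpo and the dendritic cell sum mostly Zbtb46 (5.07 and 6.02 CPM). S100a8 (0 and 0.890 CPM) and Itgax (0.227 and 0 CPM) were near 0 there. Vcam1 made up 11.2 of the 18.96 CPM of the monocyte and macrophage sum in KO replicate 3. In KO replicate 2 that list held Vcam1 at 35.1 CPM and Csf1r at 12.6 CPM. C1qa, C1qb, C1qc and Adgre1 had 6.51, 5.91, 6.74 and 3.03 CPM there. Csf1r and these genes had at most 0.830 CPM in any WT library and 0.205 to 0.890 CPM in KO replicate 3. Cd68 went the other way, with 4.09 CPM in KO replicate 2 and 4.31 to 6.97 CPM in WT. The part of these lists in either change was not tested. The platelet and megakaryocyte sum, held largely by Gp1ba and Itga2b, was also higher in every KO library. It was highest in KO replicate 2, as Rapgef3 was (6.81 CPM), and its part was not tested either. The neutrophil, monocyte and macrophage, and dendritic cell sums were highest in KO replicate 1. The levels of Rapgef3 (4.61 CPM) and Rapgef4 (4.33 CPM) in that library lay between those of KO replicates 2 and 3. Without this library the log2 fold change was -2.33 for Rapgef4 and 3.01 for Rapgef3, the latter with the genes of the full filter kept, since with 2 KO libraries Rapgef3 no longer passed the filter. Counting did not use strand. Exons of Rapgef3 share 236 and 351 bases with the antisense genes Rapgef3os1 and Rapgef3os2, and those of Rapgef4 share 337 bases with Rapgef4os2, so reads from these stretches cannot be assigned to one strand.

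The change was thus one of composition as well as of amount. To compare different genes, CPM was divided by the exon length in kb. In WT, Rapgef3 made up 3.77, 3.34 and 2.45% of the length-scaled EPAC transcripts in replicates 1 to 3. In KO it made up 52.9, 60.1 and 52.9%. In KO replicates 1 and 3 this rested on 83 against 78 and 64 against 60 counts of Rapgef3 and Rapgef4. The parts of these genes were thus about equal there. The share went from 3.19 ± 0.670% in WT to 55.3 ± 4.15% in KO (SD, n = 3), and both genes summed to 3.42 ± 0.282 CPM per kb in WT and 1.49 ± 0.261 CPM per kb in KO. These shares rest on the 2 changes above and were not tested apart from them.

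**Figure D2:**
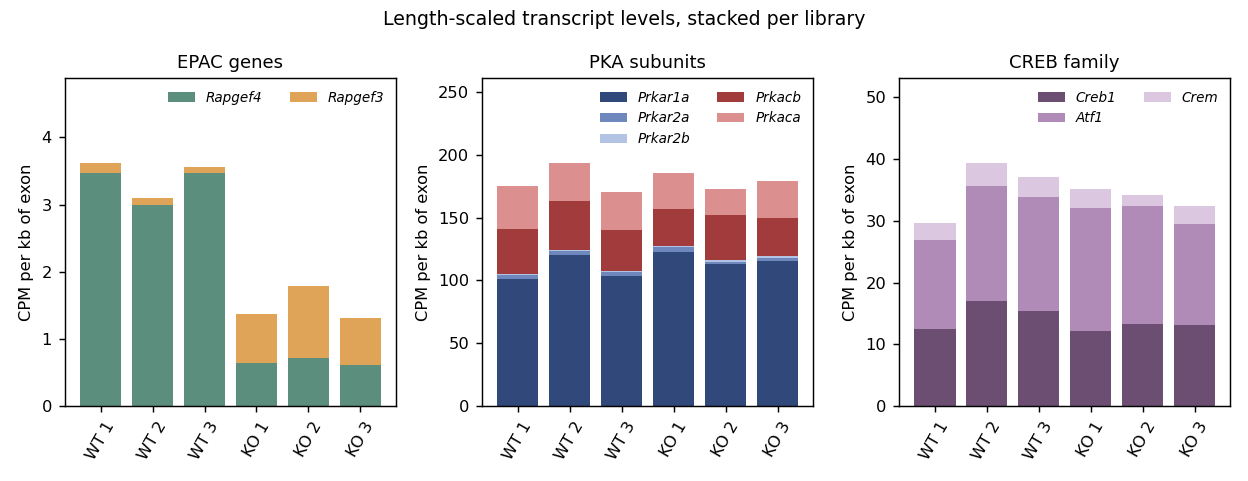
Stacked bars of length-scaled transcript level (CPM per kb of exon) in each library for the EPAC genes, the PKA subunits and the CREB family. The EPAC bars fall from a mean of 3.42 to 1.49 CPM per kb and change from mostly Rapgef4 to 52.9 to 60.1% Rapgef3. The PKA bars have means of 179 CPM per kb in both groups.

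The deleted locus makes a pair of mature miRNAs, and the letters that pair with their seeds were searched in the longest annotated 3′ UTR of each gene. The miRNAs are shown because these seeds define the sites, with the seed (bases 2 to 8) in capitals, from RefSeq (GRCm38.p6, chromosome 11, plus strand).
miR-142a-3p: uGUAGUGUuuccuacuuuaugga
miR-142a-5p: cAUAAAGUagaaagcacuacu
For miR-142-3p a match was ACACTAC or, with the first letter dropped and an A added at the end, CACTACA. For its form with the seed shifted by 1 base a match was AACACTA or likewise ACACTAA, and for miR-142-5p it was ACTTTAT or likewise CTTTATA. Only the sense strand was searched. The sites in the called gene Rapgef4, the 3p match in Prkar2a and the longest 5p match in Creb1 are shown with the match in capitals.
Rapgef4, 3p: aacgtttcCACTACAaatttatt
Rapgef4, 3p shifted: ctcaccacAACACTAtgaaacat
Prkar2a, 3p: ttatctctCACTACAgttacctc
Creb1, 5p: gggagtaaACTTTATAtgtatgtt
They lie in the last exons of their genes, at chr2:72257147-72257153, chr2:72256904-72256910, chr9:108749817-108749823 and chr1:64597959-64597966 (GRCm38, plus strand).

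Rapgef4, which fell, held 2 matches to the miR-142-3p seeds in a 3′ UTR of 1098 bases, and Rapgef3, which rose, held none in 778 bases. Across the 10 genes, 5 had a match to either miR-142-3p seed and 6 had a match to the miR-142-5p seed. Among the 10781 tested genes with an annotated 3′ UTR, searched for the same letters, these shares were 22.7 and 23.6%. The UTRs differ in length, from 778 bases in Rapgef3 to 7170 in Creb1, beside a median of 1186 bases over tested genes. Prkar1a and Creb1 held 3 matches each to the miR-142-5p seed, Prkar2a and Atf1 held 2 each, and Prkaca and Crem held none to any seed. Of the genes with a match, Rapgef4 alone was called, and a match is a description of the letters, not evidence of a site in use.

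**Figure D3:**
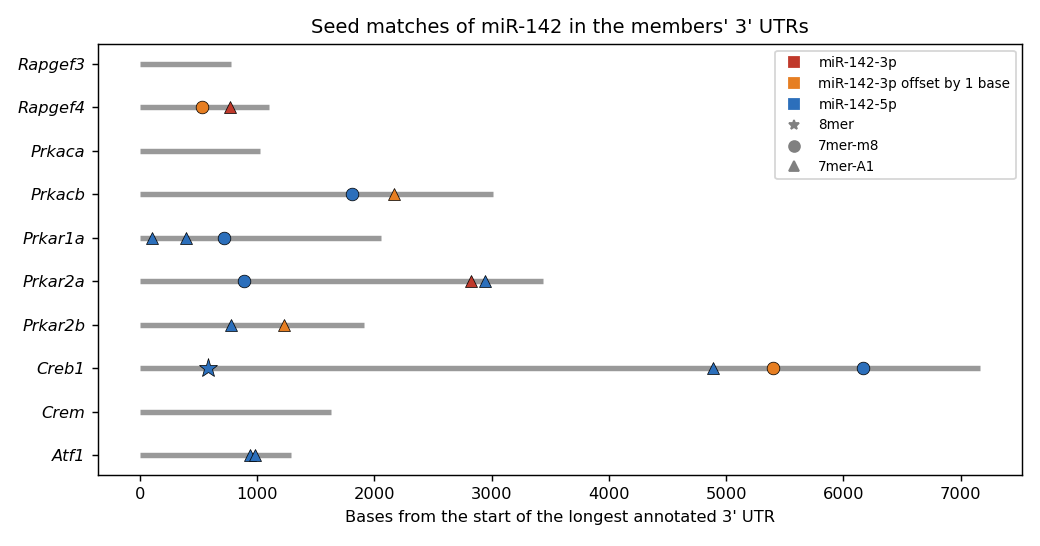
Position of miR-142 seed matches along the longest annotated 3′ UTR of each gene, in bases from the UTR start, with the seed by color and the match type by symbol. Rapgef4 has 2 matches to the miR-142-3p seeds within 1098 bases, and Rapgef3, Prkaca and Crem have none.

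The PKA catalytic subunits phosphorylate the targets of the kinase. Prkaca (chromosome 8, 83972993 to 83996443, plus strand) had 84.1, 75.2 and 74.8 CPM in WT replicates 1 to 3 and 71.2, 50.6 and 73.0 CPM in KO replicates 1 to 3. All KO values were below all WT values, but KO replicates 1 and 3 only just, and the gene was not called (log2 fold change -0.26, SE 0.15, 95% CI -0.61 to 0.08, FDR = 0.248 by edgeR). Prkacb (chromosome 3, 146729574 to 146812990, minus strand) had 313, 337 and 287 CPM in WT and 258, 319 and 267 CPM in KO. Its groups overlapped (log2 fold change -0.15, SE 0.11, 95% CI -0.42 to 0.11, FDR = 0.385 by edgeR).

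The regulatory subunits hold the catalytic subunits inactive until cAMP binds. Prkar1a, the type I subunit, lies on chromosome 11 (109649405 to 109669656, plus strand) and had 437, 518 and 446 CPM in WT and 530, 488 and 499 CPM in KO. The groups overlapped, and the interval of its log2 fold change of 0.11 (SE 0.10) ran from -0.12 to 0.35 (FDR = 0.457 by edgeR). Prkar2a, a type II subunit, lies on chromosome 9 (108689314 to 108750436, plus strand) and had 22.2, 23.1 and 21.6 CPM in WT and 22.8, 10.7 and 15.7 CPM in KO. KO replicate 1 was at the WT level while the other KO libraries were lower. With all libraries its log2 fold change was -0.44 (SE 0.25, 95% CI -1.03 to 0.15, FDR = 0.257 by edgeR). Without KO replicate 1, the library where most lists of other cells were highest, it was -0.77 (FDR = 0.0251). The part of those cells in this value was not tested.

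Prkar2b, the other type II subunit, lies on chromosome 12 (31958476 to 32061296, minus strand) and had 2.65, 3.36 and 3.43 CPM in WT and 4.61, 4.77 and 5.89 CPM in KO. All KO libraries were above all WT libraries. The log2 fold change was 0.69 (SE 0.22, 95% CI 0.17 to 1.20), and its FDR of 0.0686 by edgeR missed the threshold, as it did in all 11 other settings of normalization, filter and test.

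Summed per kb of exon, the 5 PKA subunits reached 179 ± 12.0 CPM per kb in WT and 179 ± 6.47 CPM per kb in KO (SD, n = 3). The catalytic subunits were 39.7, 35.5 and 36.9% of this sum in WT and 31.3, 32.9 and 33.3% in KO. The groups did not overlap in this share, which is given as a description, without a test. Its size depends on the length used for each gene. Prkar1a made up 96.1 ± 0.209% of the regulatory transcripts in WT and 96.7 ± 0.623% in KO.

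The CREB family carries the signal to promoters. Creb1 (chromosome 1, 64532645 to 64604548, plus strand) had 171, 233 and 212 CPM in WT and 166, 182 and 180 CPM in KO, with a log2 fold change of -0.22 (SE 0.12, 95% CI -0.51 to 0.07, FDR = 0.243 by edgeR). Atf1 (chromosome 15, 100227819 to 100261244, plus strand) had 44.0, 57.1 and 56.3 CPM in WT and 60.9, 58.5 and 50.02 CPM in KO, with a log2 fold change of 0.11 (SE 0.13, 95% CI -0.21 to 0.42, FDR = 0.616 by edgeR). WT and KO libraries overlapped for both genes, and WT replicate 1 was the lowest WT library in each. Crem (chromosome 18, 3266048 to 3337748, minus strand) had 16.2, 21.3 and 19.1 CPM in WT and 18.3, 10.9 and 17.4 CPM in KO, and its groups also overlapped (log2 fold change -0.28, SE 0.22, 95% CI -0.79 to 0.23, FDR = 0.400 by edgeR). Crem is known to encode activators and, from an internal promoter, the repressor ICER, which a count per gene does not separate. Its exons also share 472 bases with Gm6225 on the other strand. KO replicate 2 was the lowest library for Prkaca, Prkar2a and Crem.

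Per kb of exon the order of the WT levels ran from Prkar1a (108 ± 10.3 CPM per kb) to Rapgef3 (0.109 ± 0.0248 CPM per kb). Prkacb (35.6 ± 2.81) and Prkaca (31.4 ± 2.10) came next after Prkar1a, and their libraries overlapped. Atf1 (17.2 ± 2.39) and Creb1 (14.95 ± 2.32) were also not separated, nor were Prkar2a (3.499 ± 0.114), Rapgef4 (3.31 ± 0.276) and Crem (3.20 ± 0.435). In KO, Rapgef4 (0.659 ± 0.0506) went from rank 7 to rank 10, below Prkar2b (1.39 ± 0.191) and Rapgef3 (0.831 ± 0.212). The KO libraries of Rapgef3 and Rapgef4 overlapped. Dividing by the longest transcript instead put Creb1 above Atf1 and Crem above Rapgef4 and Prkar2a in WT, and kept Rapgef4 at rank 7 in WT and 10 in KO. It also set Prkacb (71.8 ± 5.67 CPM per kb) apart from Prkaca (34.3 ± 2.29 CPM per kb) in WT.

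Other PKA subunits and PKA inhibitors were listed beside these genes. Of 5 on the list, 3 were tested, and 2 were higher and 1 lower in KO, where 18.8% of all tested genes were called. Prkar1b, a further type I regulatory subunit, had 1.91, 1.64 and 2.43 CPM in WT and 7.27, 6.21 and 5.47 CPM in KO (log2 fold change 1.67, SE 0.24, FDR = 0.00540 by edgeR), and it was called whichever library was left out. Even so it made up only 0.469 ± 0.123% of the regulatory transcripts per kb in WT and 1.349 ± 0.146% in KO, beside Prkar1a. Pkig, which inhibits the free catalytic subunits, had 1.355, 1.19 and 1.55 CPM in WT and 11.9, 4.32 and 4.04 CPM in KO. Its highest value was in KO replicate 1, and its log2 fold change of 2.31 (SE 0.47, FDR = 0.0166 by edgeR) was still called without that library (FDR = 0.00548) but not without WT replicate 1 (0.0654), 2 (0.0808) or 3 (0.0620). Prkx, a kinase related to the catalytic subunits, went from 83.2 ± 2.79 to 68.0 ± 0.642 CPM (log2 fold change -0.29, SE 0.07, FDR = 0.0363 by edgeR), and among the fits without a single library only that without KO replicate 2 (0.0421) called it, with FDR values from 0.0568 to 0.141 without each of the other libraries.

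Anchoring proteins (AKAPs) tie PKA to places in the cell. Of 15 listed, 10 were tested, and 1 was higher and 2 were lower in KO, or 30%, beside 18.8% of all tested genes. Akap7 rose from 8.01, 6.80 and 8.19 CPM in WT to 18.7, 18.9 and 16.97 CPM in KO (log2 fold change 1.25, SE 0.15, FDR = 0.00259 by edgeR) and was called whichever library was left out. Akap12 fell from 31.3 ± 1.78 to 20.1 ± 2.97 CPM (FDR = 0.0188), a call made also without KO replicate 1 (0.0286) or 2 (0.00893) but not without each other library (0.0525 to 0.0733). Akap8l fell from 189 ± 9.82 to 134 ± 23.7 CPM (FDR = 0.0400), and without a single library it was called only when KO replicate 3 was left out (0.0161, against 0.0556 to 0.132). That call was also lost without the filter on low counts (0.0520).

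EPAC proteins act on RAP1, whose GTPase cycle has further exchange factors and GTPase-activating proteins (GAPs). Of 17 genes listed, 16 were tested, and 2 were higher and 4 lower in KO, or 37.5%, beside 18.8% of all tested genes. Sipa1, a RAP GAP, fell from 388 ± 10.2 to 248 ± 35.3 CPM (log2 fold change -0.64, SE 0.12, FDR = 0.0114 by edgeR), and Rasgrp2, a RAP exchange factor driven by calcium and diacylglycerol, fell from 245 ± 25.7 to 159 ± 17.7 CPM (log2 fold change -0.63, SE 0.12, FDR = 0.0137). Sipa1l2, a relative of Sipa1, rose from 37.6 ± 4.02 to 58.9 ± 1.12 CPM (log2 fold change 0.65, SE 0.10, FDR = 0.00729) and was called whichever library was left out. Genes that load RAP1 and genes that unload it were thus both among the lower ones. The call for Sipa1 was lost without WT replicate 2 (FDR = 0.0599), and that for Rasgrp2 without WT replicate 2 (0.0612) or 3 (0.0571). Sipa1l1, a further relative, fell from 229 ± 2.93 to 168 ± 21.6 CPM (FDR = 0.0278), but was called only without KO replicate 1 (0.0361) or 2 (0.0122) and not without each other library (0.0645 to 0.106).

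cAMP is made by adenylyl cyclases downstream of receptors and is broken down by phosphodiesterases. Of 35 such genes, 24 were tested, and 1 was higher and 2 were lower in KO, or 12.5%, beside 18.8% of all tested genes. Ptger2, a prostaglandin E2 receptor that raises cAMP, fell from 77.7, 61.8 and 65.2 CPM to 24.4, 28.3 and 26.1 CPM (log2 fold change -1.38, SE 0.12, FDR = 0.00101 by edgeR). Pde7a, a cAMP phosphodiesterase, fell from 78.2, 87.1 and 82.8 CPM to 37.7, 45.8 and 41.2 CPM (log2 fold change -0.99, SE 0.10, FDR = 0.00176). The higher gene was the phosphodiesterase Pde3b (log2 fold change 1.63, SE 0.22, FDR = 0.00441). A receptor that raises cAMP and a phosphodiesterase were lower together while another phosphodiesterase was higher. Each of these 3 calls held whichever library was left out.

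**Figure D4:**
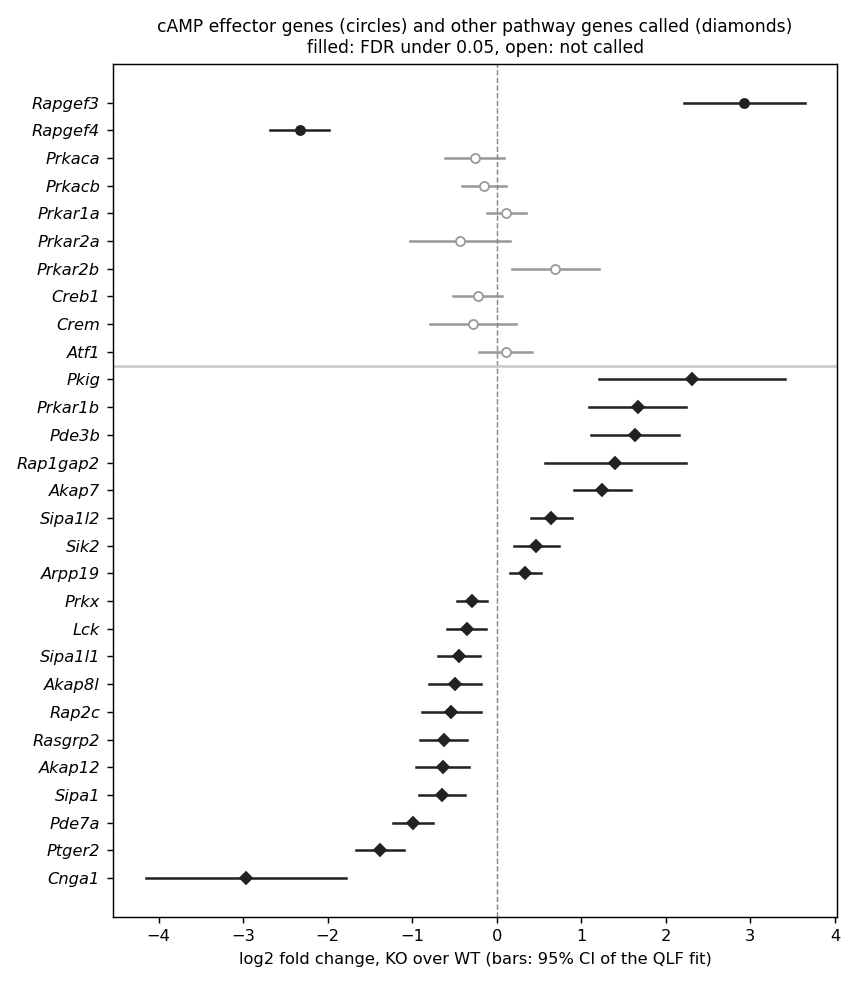
Log2 fold change (KO over WT) with its 95% interval for the 10 cAMP effector genes (circles) and the 19 called genes of the surrounding pathway lists (diamonds), filled where the FDR was under 0.05. Rapgef3 (2.92) and Rapgef4 (-2.33) are the filled circles, and the points of the other 8 effector genes lie between -0.44 and 0.69.

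The lists held 111 genes besides the 10 effector genes, of which 81 were tested, 8 were higher and 11 were lower, or 23.5% beside 18.8% of all tested genes. Of 13 other cAMP-binding proteins, 3 were tested, and Cnga1, a channel subunit, went from 3.01 ± 0.435 to 0.362 ± 0.315 CPM (log2 fold change -2.97, SE 0.51, FDR = 0.00929 by edgeR), having passed the filter only through its 3 WT libraries, so that it was not tested when one of them was left out. A list of the route from PKA to CSK, with other PKA substrates added, had 8 of 8 genes tested. Arpp19, one of those substrates rather than part of the route, was higher (log2 fold change 0.34, SE 0.08, FDR = 0.0259 by edgeR). Lck, the receptor-proximal kinase that CSK restrains, was lower (-0.35, SE 0.10, FDR = 0.0449). Csk itself had a log2 fold change of -0.27 and was not called (FDR = 0.0611). Without a single library, Arpp19 was called only when KO replicate 2 was left out (0.0234, against 0.0716 to 0.108) and Lck only when KO replicate 3 was (0.0445, against 0.0719 to 0.153). The call for Arpp19 was also lost when libraries were scaled by size alone (0.0685) or by the upper quartile (0.0615), and that for Lck without the filter on low counts (0.0742).

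Downstream of CREB, none of 13 tested genes of a list of 14 CREB targets passed edgeR's test, and none had an unadjusted p under 0.05. DESeq2 called 0 of them, with 1 lower at an unadjusted p under 0.05. Their median log2 fold change was -0.28, Crem being one of them, but it was 0.47 without WT replicate 3 and -0.13 without the filter on low counts, so no direction is read from it. These early response genes varied widely within a group. Fos, part of the AP-1 factor, had 54.3, 1061 and 550 CPM in WT and 523, 827 and 1083 CPM in KO. Nr4a1, a nuclear receptor induced through the antigen receptor, had 149, 275 and 1019 CPM in WT and 240, 442 and 240 CPM in KO. WT replicate 1 was the lowest library for both, and differences between the groups were not detectable at this spread. Among 8 coactivators of CREB and the kinases that restrain them, Sik2, one of those kinases, rose from 37.3 ± 3.75 to 51.6 ± 4.47 CPM (log2 fold change 0.47, SE 0.11, FDR = 0.0306 by edgeR). That call was lost under scaling by library size alone (0.0549) or by the upper quartile (0.0523), and among fits without a single library it was made only without KO replicate 1 (0.0451, against 0.0518 to 0.114).

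The full cAMP response element, TGACGTCA, which reads the same on both strands, was searched in RefSeq promoter windows of 250 bases before to 50 bases after each start. It was present in 588 of 32851 windows (1.79%). Among the effector genes with a window it was found in Prkar1a alone, in 2 of 6 windows that cover the same site. That site is shown beside those of Areg and Dusp1, the genes on the CREB target list that held the element, with the element in capitals (GRCm38.p6, on the strand of the gene).
Prkar1a: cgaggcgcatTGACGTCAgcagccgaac
Areg: ggctggtccgTGACGTCAcgggcggtgg
Dusp1: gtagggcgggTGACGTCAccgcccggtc
The elements lie at chr11:109650900-109650907 (plus), chr5:91139538-91139545 (plus) and chr17:26508608-26508615 (minus), 49, 61 and 143 bases before a start.

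The calls for genes with this element were few. Of 337 tested genes that held it, 17 were higher (5.04%) and 27 were lower (8.01%), with a median log2 fold change of -0.03. Of all 8946 tested genes with a window, 11.6% were higher and 7.23% lower, with a median of 0.02. The split depended on the libraries and the scaling. Without WT replicate 1, 2 or 3 the counts were 8 higher and 9 lower, 5 and 3, and 7 and 4. Over all tested genes the same fits gave 666 higher and 356 lower, 483 and 208, and 555 and 235, against 1350 and 847 with all libraries. Without KO replicate 3 the counts for genes with the element were 13 and 17, and with library size alone as the scale they were 14 and 42. A variant that lets the seventh letter vary (TGACGTNA) was held by 529 tested genes and gave 44 higher and 33 lower. No difference in direction is read from these counts. Prkar1a (log2 fold change 0.11), Areg (0.24) and Dusp1 (0.14) were not called.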

How the data were processed

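RNA-seq libraries of Treg cells from 3 WT and 3 KO mice were compared. Per the study's methods and processing notes, the authors aligned 51-base single-end reads to mm10 with HISAT, counted them on genes with featureCounts without strand, and deposited raw counts without normalization. Here, genes that exceeded 1 CPM in 3 or more libraries entered a fit in edgeR 4.0.16 (R 4.3.3), with TMM scaling, the quasi-likelihood F test and Benjamini-Hochberg adjustment over all genes tested (FDR under 0.05). Standard errors are the log2 fold change divided by the square root of F. Single genes were also tested by exact permutation on log2(CPM + 0.5). The total counts of 13883069 to 24042994 put the floor of 3 counts at 0.125 to 0.216 CPM, which covers counting error only. Lengths, positions and 3′ UTRs came from GENCODE vM21 (GRCm38), the build mm10 names, where all 10 genes matched. Promoter windows matched 9 of 10. Each library is 1 mouse. The 10 genes, the pathway lists and the alternatives were chosen with earlier results of these data known. Named genes were the 10, the targeted locus, up to 4 called genes per pathway list by p-value, and the 3 most correlated genes of each called effector gene. Csk, Fos, Nr4a1, Areg, Dusp1 and Rap1gap2 fall outside this rule and were chosen after their values were seen. The labels do not say what replicate numbers mark, and the samples were treated as unpaired. Alternatives covered scaling, DESeq2 1.42.0, other edgeR tests, the filter, a replicate block and leaving out each library.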

Additional observations from a re-analysis of the deposited data

How the results depend on the processing

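The calls for Rapgef3 (2.84 to 2.93) and Rapgef4 (-2.41 to -2.33) held in all 11 alternatives of scaling, filter and test, which called none of the other 8 genes. Rapgef3 was not tested when any KO library was left out, so without each library in turn the 10 genes gave 0 to 1 higher and 1 to 2 lower calls. With the genes of the full filter kept, an alternative chosen after seeing the data, they gave 1 higher and 1 to 2 lower, and Rapgef3 was called in 6 of 6 fits (2.70 to 3.09). The second lower call was Prkar2a without KO replicate 1 (-0.77, or -0.75 with the genes kept). Atf1 changed sign without WT replicate 1 (-0.0325, or -0.0129 with the genes kept, in a range up to 0.170); the cause was not tested. Over all genes, leaving out a library gave 483 to 1403 higher and 208 to 937 lower calls (with the genes kept, 497 to 1519 and 236 to 973, including 722 and 368 without WT replicate 1 and 564 and 257 without WT replicate 3), the fewest without WT replicate 2, against 1350 and 847. An FDR under 0.01 left 490 higher and 196 lower, and scaling by library size alone gave 1064 and 1201, scaling by the upper quartile 1086 and 1209. The pathway lists gave 4 to 11 higher and 2 to 12 lower without each library (4 to 11 and 3 to 12 with the genes kept), and 13 higher by DESeq2. For promoters with TGACGTCA the ranges were 5 to 17 higher and 3 to 25 lower, with 42 lower by library size alone. The larger set of 529 genes with TGACGTNA gave 44 higher.

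WT and KO libraries with the same replicate number did not deviate together (r of 0.0804, -0.0056 and -0.195 for numbers 1 to 3). Pairs with unlike numbers ranged from -0.183 to 0.207. With 3 libraries per group these values cannot show whether a number marks a shared day or litter, and the labels do not say. With a replicate block, Rapgef3 and Rapgef4 remained the 2 calls among the 10 genes, and calls over all genes were 1061 higher and 545 lower. The block left Arpp19 (FDR = 0.0821), Lck (0.0856), Prkx (0.0973), Akap8l (0.0599) and Sik2 (0.0546) uncalled by edgeR and put the median log2 fold change of the CREB targets at 0.17. At 10 to 16 counts in WT libraries, the level of Rapgef3 there is the least precise of the 10.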

Other observations

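The genes whose log2 CPM followed Rapgef4 most closely over the 6 libraries were D930020B18Rik (Pearson r = 0.9996), Susd4 (0.9985) and Plcb2 (0.9979), and 28 genes had r above 0.99. Those closest to Rapgef3 were Furin (0.9965), Nt5dc3 (0.9961) and Uxs1 (0.9957), and 35 genes had r above 0.99. These are descriptions over 3 WT and 3 KO libraries that share 1 contrast, in which any gene with well separated groups scores high.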
